A study of Mus musculus with 4 samples.

Results

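Mbp, Mag, Mobp, Mog, Cnp, Ermn, Plekhh1, Anln and Pex5l are genes of myelin and of mature oligodendrocytes, the cells that wrap axons of the central nervous system in myelin. These 9 genes, of 36090 gene rows in the count tables, were taken as a list of symbols, and all 9 were present in every table. The list was chosen by transcript levels in these same cells, so their level in oligodendrocytes against other cells is given below as a description with no test.

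Mature oligodendrocytes extend processes that wind around axons and compact into a lipid-rich sheath. Mbp and Mobp encode small basic proteins that hold the cytoplasmic faces of compact myelin together, Mag and Mog encode immunoglobulin-family proteins on the innermost and outermost membrane of the sheath, and Cnp encodes a cyclic nucleotide phosphodiesterase of the uncompacted, cytoplasm-filled channels. The mRNAs of Mbp and Mobp are transported out of the cell body and translated in the myelin-forming processes. In the hypothalamus, new oligodendrocytes are made throughout adult life, and those of the median eminence are known to respond to nutrition.

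The study sorted hypothalamic cells of C57BL/6 mice that carried Lepr-cre and Rosa-LSL-tdTomato into 384-well plates, 1 cell per well, and read them by CEL-seq2, which counts each transcript once from its 3′ end by a molecular identifier (UMI). All 4 plates shared this genotype and strain, and 3 plates held cells of fed mice and 1 held cells of mice deprived of food for 24 h. The red reporter stays on in every cell in which Cre from the leptin receptor locus was once active, so a sorted cell need not express Lepr when collected. No source used here gives the number of animals behind a plate, whether animals were pooled, or their age and sex. The plates are called fed 1, fed 2, fed 3 and fasted. Since nothing says that they came from separate animals, p-values reflect nothing but the plate-to-plate spread, which may be technical, and with 1 fasted plate the feeding state and the plate cannot be told apart.

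Wells with at least 1000 transcripts and under 30% mitochondrial transcripts were kept, which left 356, 322 and 331 fed wells and 270 fasted wells, or 1279 of 1536. The kept wells held 4402407 to 5535041 transcripts per plate, with a median of 7753 to 13518 per well. Sex-linked transcripts differed between the plates: wells with Xist but no Y-linked transcript made up 6.74, 51.6 and 42.0% of the kept fed wells and 84.4% of the kept fasted wells. No kept fasted well had Y-linked transcripts without Xist, against 75.6, 25.2 and 29.6% of wells on the fed plates.

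The kept wells were clustered without the 9 genes, and 1 cluster met all 9 markers set for oligodendrocytes (among them Mal, Cldn11, Opalin, Ugt8a, Aspa, Gjb1, Hapln2 and Tmem125). This oligodendrocyte-like class held 51 wells: 2 on fed 1, 8 on fed 2, 6 on fed 3 and 35 on the fasted plate. These were 0.562, 2.48 and 1.81% of the kept fed wells and 12.96% of the kept fasted wells. The same 51 wells came out under every clustering setting tried, and with the 9 genes added to the features. In the class, all 9 markers were detected on each plate. The 9 neuron markers summed there to 294 to 633 CPM (counts per 1e6 counts, from sums over the wells of a class on a plate, and the unit of every level below), the 8 astrocyte markers to 162 to 368 CPM and the 8 microglia markers to 0 to 83.7 CPM. The fasted wells lay at well numbers 266 to 384, those of fed 2 at 302 to 353 and those of fed 3 at 172 to 378, while fed 1 had wells 3 and 125. The labels do not say what the well numbers mean.

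Sequence just upstream of the start sites is shown for 4 of the 9 genes, chosen to contrast promoters that are rich in or free of letters bound by oligodendrocyte transcription factors. The sequences are the 250 bases before the start in RefSeq's table (GRCm38.p6), written 5′ to 3′ on the gene's strand, and 7 of the 9 genes were matched in it. Capitals mark ACAAAG and AACAAT, to which SOX-family factors such as Sox10 bind, and CTGGNAC, each on either strand. CTGGNAC, with N for any base, is looser than the letters bound by the myelin regulatory factor Myrf. Mobp lies at chr9:120149707-120181484 and Cnp at chr11:100574904-100591729, both on the forward strand, and Mog at chr17:37010743-37023398 and Ermn at chr2:58045113-58052864, both on the reverse strand (GENCODE vM21, GRCm38). The windows shown are chr9:120149492-120149741 for Mobp, chr11:100574689-100574938 for Cnp, chr17:37023399-37023648 for Mog and chr2:58052865-58053114 for Ermn.
Mobp: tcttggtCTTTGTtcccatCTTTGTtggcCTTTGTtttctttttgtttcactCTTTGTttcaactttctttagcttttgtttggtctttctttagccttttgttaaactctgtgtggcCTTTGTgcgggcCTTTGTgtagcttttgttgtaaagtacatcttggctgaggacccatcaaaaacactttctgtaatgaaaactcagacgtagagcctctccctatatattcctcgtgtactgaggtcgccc
Cnp: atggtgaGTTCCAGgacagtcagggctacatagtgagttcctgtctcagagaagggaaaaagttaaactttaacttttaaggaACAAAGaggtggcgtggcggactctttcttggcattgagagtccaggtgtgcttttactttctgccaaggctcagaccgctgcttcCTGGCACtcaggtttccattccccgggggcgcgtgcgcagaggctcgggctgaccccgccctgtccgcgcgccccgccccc
Mog: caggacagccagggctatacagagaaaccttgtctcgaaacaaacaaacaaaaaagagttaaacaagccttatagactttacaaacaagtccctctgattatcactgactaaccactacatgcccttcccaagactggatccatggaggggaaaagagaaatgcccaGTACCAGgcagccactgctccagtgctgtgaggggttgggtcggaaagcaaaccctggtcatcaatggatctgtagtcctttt
Ermn: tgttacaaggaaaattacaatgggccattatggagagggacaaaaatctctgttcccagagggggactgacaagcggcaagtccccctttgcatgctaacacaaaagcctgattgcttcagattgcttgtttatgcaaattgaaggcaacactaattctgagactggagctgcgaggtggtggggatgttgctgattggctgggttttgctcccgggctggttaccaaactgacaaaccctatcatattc
The Mobp window held 6 copies of ACAAAG, all on the opposite strand. The Cnp window held 1 copy of ACAAAG and 2 of CTGGNAC, the Mog window held 1 of CTGGNAC, and the Ermn window held none of the 3. Over 32851 RefSeq promoter windows of the same length, 16.5% held ACAAAG, 9.42% AACAAT and 16.1% CTGGNAC. A match is a description of letters and not evidence of a bound site.

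Mag lies at chr7:30899176-30914873 and Anln at chr9:22332012-22389188, both on the reverse strand, Plekhh1 at chr12:79029163-79081655 on the forward strand and Pex5l at chr3:32949408-33143247 on the reverse strand. Cnp, Ermn and Plekhh1 overlap Dnajc7, Galnt5 and Pigh on the other strand, and whether the counting used strand is not given in the sources used here. Mbp, Mog and Pex5l also overlap genes on the other strand, among them Rpl21-ps8, Gm22388 and Gm37459. On the same strand, Mobp overlaps Gm38642, Anln overlaps Gm48646, and Pex5l overlaps Gm37443 and Gm19445. Reads of such pairs could therefore be assigned to either gene.

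In the oligodendrocyte-like wells the genes of compact and uncompacted myelin were present in nearly every cell. Mbp, Mag, Mobp and Cnp had at least 1 UMI in all 51 wells, Mog, Ermn and Pex5l in 50, Plekhh1 in 48 and Anln in 36. With every well thinned to 1000 transcripts, Mbp and Cnp were still detected in 100% of the class (95% exact interval 93.0 to 100%, counting error only), Mag in 94.1% and Anln in 27.5%.

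Mbp, the main basic protein of compact myelin, stood at 12587, 8545 and 8912 CPM on fed 1, 2 and 3 and at 8408 CPM on the fasted plate. Its 35 fasted wells ran from 4114 to 12614 CPM with a median of 8414. The wells of fed 2 ran from 5348 to 11393 CPM and those of fed 3 from 5077 to 12560 CPM, so the plates overlapped almost wholly although the fasted sum was the lowest of the 4. Mobp, the second basic protein, was at 5476, 1964 and 1682 CPM on the fed plates against 1702 CPM on the fasted plate, which lay between fed 3 and fed 2.

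The adhesion protein Mag, which faces the axon, and Mog, on the outer surface of the sheath, were lowest on the fasted plate. Mag was at 12155, 4561 and 3370 CPM on the fed plates against 2950 CPM on the fasted plate. Mog was at 2958, 2014 and 1657 CPM on the fed plates against 1256 CPM on the fasted plate. Cnp, the enzyme of the cytoplasmic channels, was at 10747, 6513 and 5456 CPM on the fed plates against 4987 CPM on the fasted plate.

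Among the cytoskeletal members, Ermn (ermin) binds actin and appears late in oligodendrocyte differentiation. It was at 994, 1090 and 1194 CPM on the fed plates against 1798 CPM on the fasted plate, above all 3. Anln (anillin) is a scaffold for actin and septins, which form filaments along the inner layer of myelin. It was at 147, 134 and 268 CPM on the fed plates, from 4, 8 and 11 counts, and at 600.0 CPM on the fasted plate, from 222 counts. Fasted Anln exceeded every fed plate in CPM. A UMI was held by 26 of 35 fasted wells, 4 of 8 on fed 2 and 5 of 6 on fed 3. The share of wells was thus higher on fed 3 than on the fasted plate. Median depth was 7940 and 6961 transcripts in these wells of fed 2 and 3 and 9911 in the fasted wells.

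Plekhh1 encodes a cytoplasmic protein with pleckstrin homology and FERM domains, and stood at 552, 570 and 706 CPM on the fed plates against 672 CPM on the fasted plate. Pex5l, a relative of the peroxisomal import receptor that also serves as an accessory subunit of HCN channels in neurons, was at 699, 1510 and 2146 CPM on the fed plates against 1557 CPM on the fasted plate. For both genes the fasted value lay within the span of the fed plates.

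Fed 1 stood apart on the summed level of the 9 genes, at 46314 CPM against 26901 on fed 2, 25391 on fed 3 and 23931 on the fasted plate. It rests on 2 wells, and 1 of them, well 125, carried 21284 transcripts with 312 Mbp and 316 Mag UMIs and 51738 CPM of the 9 genes. The other 50 wells of the class ran from 13456 to 33202 CPM. Plates with fewer than 5 cells of a class did not enter its test, so fed 1 was left out of the comparison below and is given with it as an alternative in the closing section. Over fed 2 and fed 3, the summed level was 26146 ± 1068 CPM (SD, n = 2), with Mbp at 8729 ± 259, Cnp at 5985 ± 748 and Mag at 3965 ± 842 CPM.

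**Figure D1:**
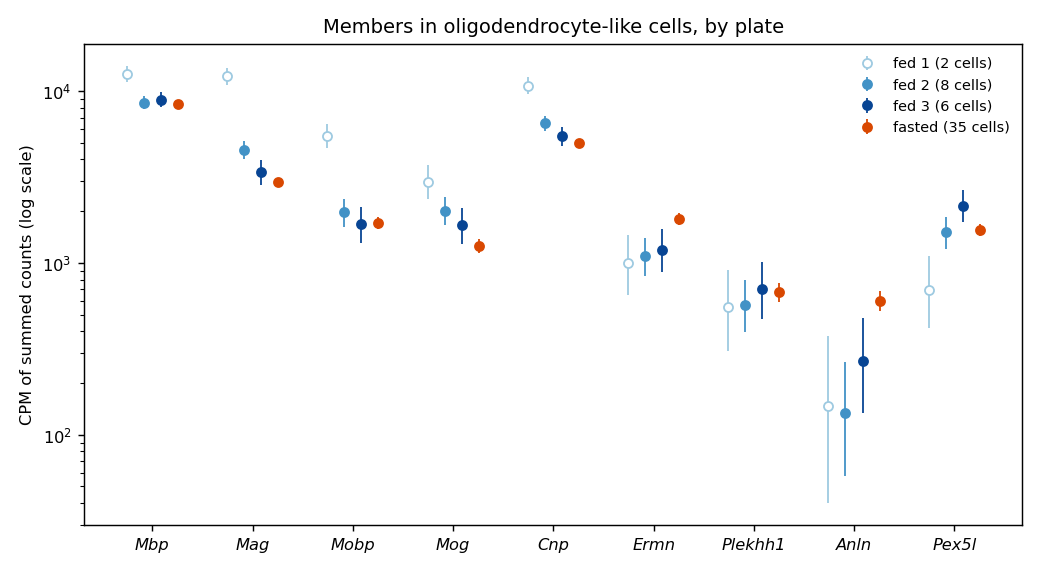
CPM of each gene in oligodendrocyte-like cells on a log axis, 1 point per plate with its exact 95% Poisson interval for counting error. Fed 1, drawn as an open circle, rests on 2 cells and lies highest for Mbp, Mag, Mobp, Mog and Cnp, while the fasted plate lies highest for Ermn and Anln.

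The comparison of fasted with fed plates in oligodendrocyte-like cells asks whether food deprivation moved the program of mature myelin. The quasi-likelihood test of edgeR was run on the summed counts of fed 2, fed 3 and the fasted plate, and takes its spread from the fed plates alone, assuming that the fasted plate varies alike. None of the 9 genes passed an adjusted p of 0.05, beside 7 of 1649 genes tested, or 0.424%. At an unadjusted p under 0.05 there were 2 of the 9, Anln and Ermn, against 76 genes or 4.61% of those tested, and DESeq2 called 0 genes. The median log2 change of the 9 was -0.02, with 4 positive and 5 negative, and that of all genes was -0.03. In CPM, 2 of the 9 lay above both fed plates, as did 24.9% of genes, and 4 of the 9 (Mbp, Mag, Mog and Cnp) lay below both, as did 31.7%. Neither count is far from the share of all genes. Mbp lay below both fed plates in CPM but had a fitted log2 change of 0.03, so it has no clear sign.

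Anln had a log2 change of 1.73 (SE 0.49, edgeR adjusted p = 0.0866), and over the alternatives its change ran from 1.68 to 1.92 with adjusted p from 0.0853 to 1.00. Ermn had 0.74 (SE 0.25, edgeR adjusted p = 0.312). The outer membrane protein Mog had -0.47 (SE 0.25) and Mag -0.35 (SE 0.23), while Cnp had -0.19, Pex5l -0.13, Plekhh1 0.17, Mobp -0.02 and Mbp 0.03, each at an edgeR adjusted p of 0.999. With the 2 wells of fed 1 included, the changes of the genes high in well 125 were larger, at -1.14 for Mag, -0.78 for Mobp, -0.77 for Mog and -0.56 for Cnp, and none passed. On simulated counts of this comparison, edgeR called 15.8% of genes with a true log2 change of 1, 58.2% at 2 and 80.4% at 3. The simulation used a single fixed dispersion and pooled genes of unlike depth, so these shares are not rates for Mag, Mog or Ermn. Changes under 1 were not simulated, and a member that was not called is not shown to be unchanged.

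**Figure D2:**
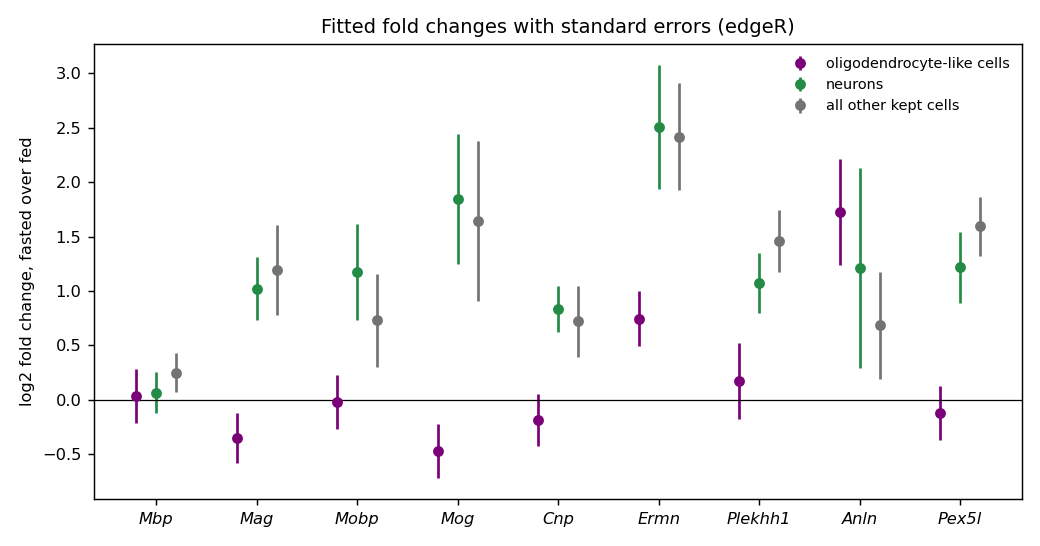
Fitted log2 fold change of the fasted over the fed plates for each gene, in oligodendrocyte-like cells, neurons and all other kept cells. Bars are standard errors derived from edgeR's F statistic. In oligodendrocyte-like cells the values scatter around 0 with Anln at 1.73, whereas in neurons and other kept cells all 9 lie above 0.

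The 7 genes that did pass in oligodendrocyte-like cells all rose on the fasted plate. Klk6, a secreted serine protease made by some mature oligodendrocytes, had no UMI in any of the 16 fed wells and 115 counts on the fasted plate (edgeR adjusted p = 9.36e-06). S100b, a calcium-binding protein of glia, rose by a log2 of 3.70 (edgeR adjusted p = 9.36e-06), from 3 and 2 counts on fed 2 and 3 to 229. Both were concentrated in the same 3 fasted wells, with 93.9% of the Klk6 counts and 96.1% of the S100b counts. Their calls are therefore not separate observations. With no fed count, Klk6 passed the filter on low counts through the fasted plate alone. Whether as few as 16 fed wells would include such cells was not tested. Chga, a granule protein of endocrine cells, rose by 4.32 (edgeR adjusted p = 2.15e-08), was spread over 34 of 35 wells and stood at 778 CPM, against 0 and 97.4 CPM on fed 2 and 3. It was at 770 to 1619 CPM in every other fasted class with at least 5 cells except the pars tuberalis-like cells, where it reached 25881 CPM. The part of transcripts from other wells in the Chga value was not tested. Rpl4, Stmn1, Gm6368 and Gm6290 also passed, at log2 changes of 1.25, 1.62, 2.28 and 4.66. Each had a UMI in 29 to 35 of the 35 fasted wells. With fed 1 included, S100b and Chga still passed. Klk6 did not (edgeR adjusted p = 0.209), nor did Rpl4, Stmn1, Gm6368 or Gm6290 (edgeR adjusted p of 0.563 to 0.999).

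The 3 fasted wells with at least 10 Klk6 UMIs, a limit set after the values were seen, also differed in the list's own genes. Their Anln counts were 54, 27 and 10, or 1876, 1846 and 728 CPM, and pooled Anln was 1585 CPM (95% Poisson interval 1276 to 1946) against 417 CPM (348 to 495) in the other 32 fasted wells. Pooled Ermn was 3414 CPM against 1494, and Pex5l was 505 against 1744. Mbp at 9163 against 8269 CPM, Mag at 3136 against 2902 and Cnp at 5505 against 4873 differed far less. Opalin, a membrane glycoprotein of oligodendrocytes, had no UMI in these 3 wells, which allows up to 64.3 CPM, and was at 705 CPM in the other 32. These 3 were the only fasted wells without Opalin. The split was drawn from these values and carries no test.

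Without those 3 wells, fasted Anln was at 417 CPM, against 134 and 268 CPM on fed 2 and 3. These fed values rest on 8 and 11 counts. Fasted Ermn without the 3 wells was at 1494 CPM, against 1090 and 1194 CPM on fed 2 and 3. In the 28 fasted wells with no Klk6 UMI, Anln was at 335 CPM (Poisson interval 269 to 411) and Ermn at 1441 CPM. Whether these differences from the fed plates exceed counting error was not tested. Over the 35 fasted wells, Anln followed Klk6 with a Spearman rho of 0.61 and Opalin with -0.55. Among the 9 genes, the closest pairs were Mobp with Anln at 0.46, Mag with Plekhh1 at 0.45 and Ermn with Anln at 0.40, while Mbp with Mag gave -0.16. These wells share 1 library and differ in depth, and the rho values are descriptions of sparse counts.

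**Figure D3:**
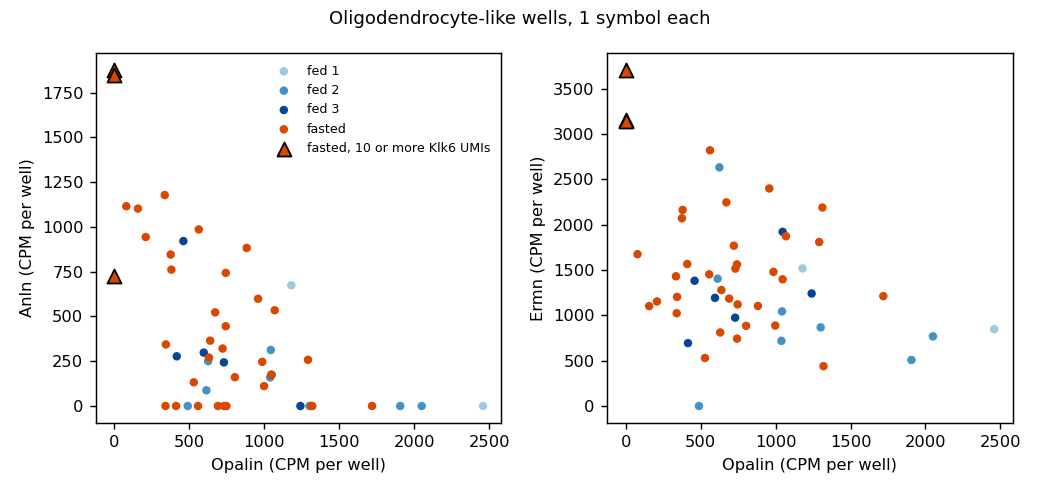
Anln (left) and Ermn (right) against Opalin in CPM, 1 symbol per oligodendrocyte-like well, coloured by plate. The 3 triangles, fasted wells with at least 10 Klk6 UMIs, stand at 0 Opalin with Anln of 728 to 1876 CPM and Ermn of 3143 to 3705 CPM.

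Of the other genes of the myelin program, 1 was called in oligodendrocyte-like cells. Of 18 listed membrane, junction and channel proteins 17 were tested and none passed edgeR's test, with 9 positive and 8 negative. Of 12 lipid enzymes 8 were tested, and of 19 cytoskeletal and cytoplasmic symbols 16, again with none passing. The 19 symbols include old and new names of the same septin genes. The 7 of 11 transcription factors tested had 1 positive and 6 negative changes with a median log2 of -0.17, and none passed. Of the 10 of 14 receptors and secreted proteins tested, Klk6 alone passed. The genes of smallest p that did not pass lay on both sides. The tetraspanin Cd9 was at 452 and 633 CPM on fed 2 and 3 and at 252 CPM on the fasted plate. On the log2 scale, the lipid phosphatase Plpp3 had -0.91, the carbonic anhydrase Car2 -0.52 and the pteridine reductase Qdpr -0.51, while the gap junction gene Gjc3 had 0.79, the fatty acid hydroxylase Fa2h 0.59 and the transferrin gene Trf 0.52.

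Across classes and plates, the summed profile of the 9 genes was most like that of Hapln2, a link protein of the nodes of Ranvier, by a rule that took the 10 genes outside the list with the highest Pearson r. Over 42 class and plate sums and 13790 genes, r was 0.89 for Hapln2, 0.85 for Tmem125, 0.82 for Opalin and 0.82 for the connexin gene Gjb1. Other genes on this list were Sec14l5 and Pacs2 at 0.81, Slc48a1 at 0.80, and Nbas and C030029H02Rik at 0.78. These points share plates and depth. Hapln2, Tmem125, Opalin and Gjb1 are also among the markers that named the oligodendrocyte-like class, so their high r is no independent result. Hapln2 averaged 217 CPM in oligodendrocyte-like cells and did not exceed 6.85 CPM in another class.

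Outside the oligodendrocyte-like class, transcripts of all 9 genes were counted in other kept wells at low levels. Of 1228 such wells, 52.4% held a Mbp UMI, 51.0% Cnp, 29.6% Mag, 28.8% Pex5l and 20.2% Plekhh1. The shares were 9.93% for Mobp, 7.90% for Mog, 6.84% for Ermn and 4.56% for Anln. Thinned to 1000 transcripts the shares were 10.9% for Mbp, 9.93% for Cnp, 5.21% for Pex5l and 4.15% for Mag, and were 0.407% for Anln. The highest count in 1 such well was 21 for Mbp, 8 for Mag, 4 for Mog and 3 for Ermn, but 83 for Pex5l and 24 for Cnp.

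Mbp outside the class was at 94.4 ± 8.51 CPM on the fed plates (SD, n = 3) and 113 CPM on the fasted plate. Mag was at 23.7 ± 7.74 and 55.2 CPM, Cnp at 62.9 ± 18.6 and 104 CPM, Pex5l at 49.0 ± 8.84 and 151 CPM, and Ermn at 2.55 ± 0.998 and 13.7 CPM. Of the 1434 Pex5l counts outside the class, 597 came from pars tuberalis-like cells, of which fed 1 had 21, fed 2 had 0, fed 3 had 1 and the fasted plate 20. The 9 together were at 261 ± 24.1 CPM on the fed plates against 507 CPM on the fasted plate. These sums are 0.535, 1.08 and 0.974% of the level in oligodendrocyte-like cells of the same fed plate, and 2.12% on the fasted plate.

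Neurons do not make myelin, so the level in them was measured the same way, although Pex5l and some transcripts of the Mbp locus are known to be made in neurons. Of 385 neuron-like wells, with a median of 28591 transcripts against 9023 in oligodendrocyte-like wells, 84.4% held a Mbp UMI and 44.7% a Mag UMI. After thinning to 1000 transcripts Mbp was found in 9.09% of neuron-like and 100% of oligodendrocyte-like wells. Mbp was at 98.1, 104 and 99.7 CPM in neuron-like cells of the fed plates and at 104 CPM on the fasted plate. The cell-surface gene Mag was at 27.6, 25 and 17.4 CPM on the fed plates against 46.9 CPM on the fasted plate. Ermn was at 1.95, 2.30 and 1.31 CPM on the fed plates against 10.6 CPM on the fasted plate. Fasted Mbp was thus level with the fed plates, whereas fasted Mag and Ermn lay above all 3.

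In neuron-like cells summed, all 9 genes lay above every fed plate on the fasted plate, as did 29.1% of genes. This held for all 9 in neurons marked by Agrp and Npy. In the other neuron-like cells fasted Mbp (112 CPM) and Pex5l (56.1 CPM) lay within the fed range, and Anln (0.904 CPM) lay below every fed plate. None passed edgeR's adjusted test, beside 26 of 15061 genes or 0.173%, and DESeq2 called 60 genes. At an unadjusted p under 0.05 there were 7 of the 9, against 11.9% of all genes. The median log2 change was 1.17, against -0.02 over all genes, with Ermn at 2.51 (SE 0.57, edgeR adjusted p = 0.183), Mog at 1.84, Pex5l at 1.22, Mag at 1.02, Cnp at 0.83 and Mbp at 0.06. Leaving out fed 1 brought Pex5l, Mag, Ermn and Cnp below the threshold, with edgeR adjusted p of 0.00734, 0.0244, 0.0357 and 0.0494. Calls over all genes rose under that setting too, to 488 of 14835 or 3.29%, and 17.6% of genes had an unadjusted p under 0.05.

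Summed over all other kept cells, all 9 lay above every fed plate, as did 29.3% of genes, and none passed edgeR's test, nor did any of 17990 genes (0%), of which 1308 had an unadjusted p under 0.05, while DESeq2 called 41. The median log2 change was 1.19, against -0.04 over all genes, from Mbp at 0.25 to Ermn at 2.42. Pex5l had 1.59, and 1.23 without the pars tuberalis-like cells. All 9 stayed positive here and in neuron-like cells under every alternative that gave a value. Without fed 1, Pex5l, Plekhh1 and Ermn passed, with edgeR adjusted p of 1.32e-05, 0.000965 and 0.00983. So did 1093 of 17714 genes or 6.17%, and 21.1% of genes had an unadjusted p under 0.05.

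The fasted plate also held the most oligodendrocyte-like cells, at 12.96% of kept wells and 7.24% of their transcripts. Of the 9 genes' counts in kept wells, 78.7% came from that class on the fasted plate, against 48.0, 56.1 and 47.5% on the fed plates. On the fasted plate the class gave 85.3% of Mbp, 91.1% of Ermn and 44.7% of Pex5l. The part of these cells in the level outside the class was not tested. Wells were also split at number 266, the lowest of the class on the fasted plate, a limit set after the values were seen. Fasted wells outside the class held 51.4 CPM of Mag and 95.5 CPM of Cnp below 266, and 103 and 215 CPM from there on. On the fed plates Mag was at 26.1, 28.2 and 14.9 CPM below 266 and at 27.6, 34.0 and 15.4 CPM from there on. Cnp was at 45.9, 58.3 and 46.3 CPM below and at 35.5, 141 and 176.9 CPM from there on, so it was higher at the upper numbers on fed 2 and 3 too. All 48 fasted neuron-like cells lay below 266, so this split also separates cell types.

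Other glia and vascular cells gave no called member. In tanycyte-like cells, the ependymal-type cells that line the floor of the third ventricle, 0 of 6 tested members passed edgeR's test, beside 322 of 10409 genes or 3.09%. All 6 were positive with a median log2 of 1.14, from Cnp at 0.71 to Plekhh1 at 2.37, and 5 had an unadjusted p under 0.05, as did 15.2% of genes. That count was 0 by DESeq2 and 0 without fed 3, where the median was 0.78. In astrocyte-like cells 0 of 3 passed (0.601% of 5323 genes), in cells like vascular leptomeningeal cells 0 of 3 (1.06% of 5301) and in endothelial-like cells 0 of 2 (0.0154% of 6480). From the lists of other myelin genes, Sox10, a transcription factor of the oligodendrocyte lineage, and the tetraspanin Tspan2 were called higher in fasted tanycyte-like wells. Sox10 was at 8.62, 36.1 and 26.1 CPM on the fed plates against 101 CPM on the fasted plate (log2 2.00, SE 0.40, edgeR adjusted p = 0.000161). Tspan2 was at 28.7, 22 and 17.4 CPM and 69.0 CPM (log2 1.63, SE 0.47, edgeR adjusted p = 0.0238). Its edgeR adjusted p was 0.134 without fed 3 and 0.0644 with no filter on low counts. The part of transcripts from other wells in the Sox10 and Tspan2 values was not tested.

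Some of the genes were also counted in other cell types at levels above those in neurons. As means over plates, Plekhh1 averaged 84.7 CPM in pars tuberalis-like cells, Mobp 36.1 CPM in microglia-like cells and Anln 12.6 CPM in tanycyte-like cells. Over all plates these genes had 67, 14 and 22 counts in those cells. Of the 14 Mobp counts, 7 came from well 168 of fed 1, and the fed plates ran from 0 to 74.3 CPM. In neuron-like cells these means were 18.3 to 19.3 CPM for Plekhh1, 5.64 to 7.54 CPM for Mobp and 1.29 to 2.14 CPM for Anln. Pex5l and Cnp reached the highest such levels. In pars tuberalis-like cells, endocrine cells of the pituitary stalk, Pex5l was at 1030 CPM on fed 1 (21 cells) and 655 CPM on the fasted plate (20 cells), against 699 and 1557 CPM in oligodendrocyte-like cells of those plates. It had a UMI in 41 of 42 such wells, and in 61.9% after thinning to 1000 transcripts, against 66.7% of oligodendrocyte-like wells. Pex5l gave 68.8% of the 9 genes' counts there, against 6.06% in oligodendrocyte-like cells. In neurons marked by Agrp and Npy, Pex5l was at 23.1, 30.9 and 39.3 CPM on the fed plates against 123 CPM on the fasted plate, and in other neuron-like cells at 32.8, 70.8 and 55.8 and at 56.1 CPM.

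Cnp was at 345 and 324 CPM in astrocyte-like cells of fed 2 and 3 and 269 CPM on the fasted plate. In cells like oligodendrocyte precursors, which give rise to oligodendrocytes and already carry Cnp, it was at 414 and 230 CPM on fed 2 and 3 and 229 CPM on the fasted plate. In ependymal-like cells it was at 281 and 325 CPM on fed 2 and 3. After thinning, 54.2% of ependymal-like, 27.7% of astrocyte-like and 24.1% of precursor-like wells held a Cnp UMI, against 5.71% of neuron-like wells, so the shares differed between classes at equal depth. Cnp made up 57.3% of the 9 genes' counts in precursor-like cells and 21.5% in oligodendrocyte-like cells. Mag, Mobp, Mog, Plekhh1 and Anln had no UMI in any of the 29 precursor-like wells after thinning.

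**Figure D4:**
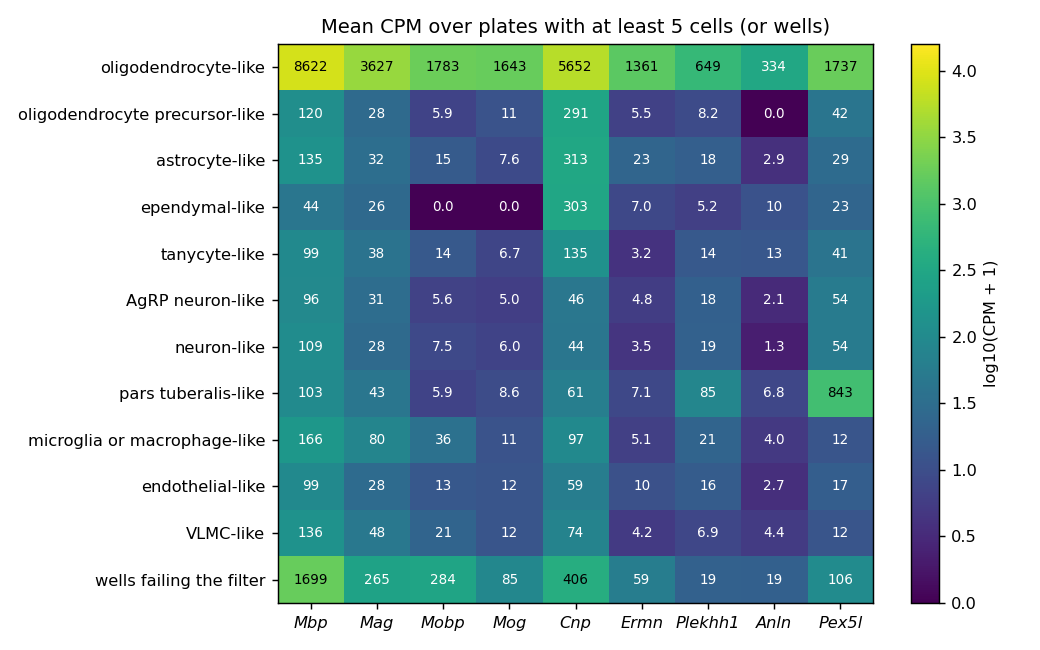
Mean CPM of each gene, printed in each cell and coloured by log10(CPM + 1), over plates with at least 5 wells of the class, for 11 cell classes and the wells that failed the filter. The oligodendrocyte-like row is highest for every gene, followed for Pex5l by pars tuberalis-like cells at 843 CPM and for Mbp by the failing wells at 1699 CPM.

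The 257 wells that failed the filter held the list at levels above those of the kept wells outside the class. Their sum was 1220, 3074 and 4906 CPM on the fed plates against 2564 CPM on the fasted plate. Mbp gave 58.9% of it, against 33.9% in oligodendrocyte-like wells, and stood at 436, 1814, 3469 and 1079 CPM on fed 1, 2, 3 and the fasted plate. Of these wells, 10 held at least 8 Mbp UMIs, a limit set after the values were seen, and 6 of the 10 had no UMI of Mag, Mog or Cnp. Well 281 of fed 3 held 49 Mbp and 10 Mobp UMIs among 809 transcripts, and none of the other 7 genes.

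In these 10 wells there were 17.8 Mobp, 5.10 Cnp and 2.55 Mag counts per 100 Mbp counts. In oligodendrocyte-like wells there were 22.3 Mobp, 63.5 Cnp and 42.3 Mag counts per 100 of Mbp. Choosing wells by their Mbp count lowers the other genes per Mbp, and well 281 alone gave 49 of the 157 Mbp counts. Over all 257 failing wells there were 0.165 Mobp, 0.237 Cnp and 0.129 Mag counts for each Mbp count, from 41, 59 and 32 counts. The 50 kept wells outside the class with at least 8 Mbp UMIs lay in between for Cnp at 26.6 and Mag at 16.5, and were lowest for Mobp at 10.8 per 100 of Mbp. Of those 50 wells, 12 held no Mag, Mog or Cnp.

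**Figure D5:**
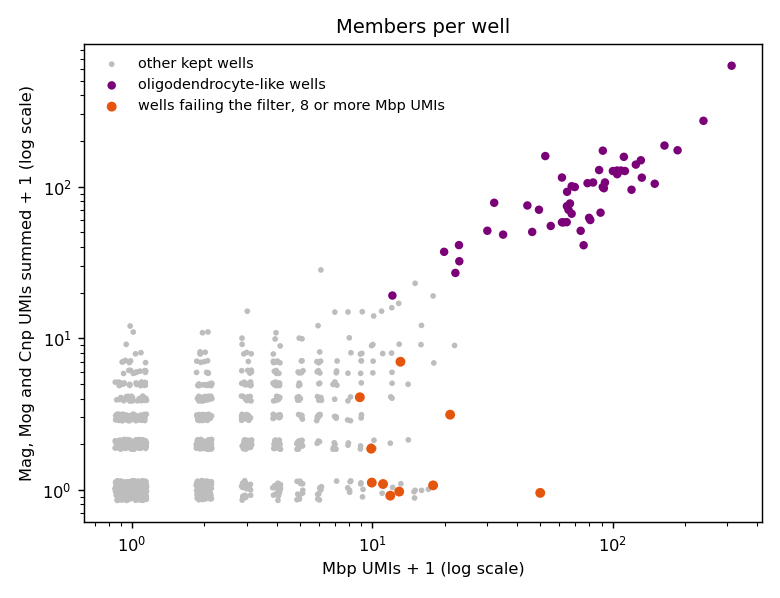
UMIs of Mag, Mog and Cnp summed against UMIs of Mbp, each plus 1 on a log axis with a small random offset, 1 symbol per well. The 51 oligodendrocyte-like wells lie at the upper right, while 6 of the 10 failing wells with at least 8 Mbp UMIs lie on the bottom edge with none of the 3 genes.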

How the data were processed

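The deposited tables hold expected counts from CEL-seq2 with a UMI of 6 bases. Per the submitters' processing notes, Trim Galore, STAR and mm10 were used. The values are UMI numbers corrected for collisions out of 4096 possible UMIs, unfiltered, and were rounded after summing. All 4 tables carry the same 384 well barcodes, which are no shared cells, since each plate was its own library. The counter was not given in the sources used here, nor the annotation release. Kept wells were clustered with scanpy 1.11.5 (2000 variable genes without the 9 members, 30 principal components, 10 neighbours, Leiden resolution 1.5, 25 clusters) and named from marker lists where at least 3 markers were met. No doublets were removed from the reported values. Counts were summed per class and plate and tested with edgeR 4.0.16 (quasi-likelihood, filterByExpr, TMM, robust dispersions) over all genes with Benjamini-Hochberg adjustment, on plates with at least 5 cells of a class. Standard errors (SE) are the absolute log2 change over the square root of edgeR's F statistic. DESeq2 1.42.0 was an alternative, and the fits were tested on simulated data. Intervals are exact 95% Poisson or Clopper-Pearson intervals and cover counting error only. The named genes are the 9 members and, from 5 lists of other myelin genes, up to 4 per list with the smallest adjusted p, beside the 10 genes most like the members, of which 1 is not reported here. All 7 genes called in oligodendrocyte-like cells, and the splits by Klk6 and by well number, were added after their values were seen. Members, lists and limits were chosen with earlier results of these data known.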

Additional observations from a re-analysis of the deposited data

Results flagged for a closer look

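For several members the fasted level lay below fed 2 and 3 in oligodendrocyte-like cells and above every fed plate used in another class. Fed plates with fewer than 5 cells of a class were not used. This left out fed 1 for astrocyte-like cells, with 3 wells and Mag at 96.6 CPM from 1 count, against 58.7 CPM on the fasted plate. Each value is the log2 ratio of fasted CPM to mean fed CPM in oligodendrocyte-like cells minus that in the other class, and the difference was not tested. For Mbp it was -0.32 against all other kept cells, -0.10 against neuron-like cells, -0.74 against tanycyte-like cells and -1.41 against cells like vascular leptomeningeal cells. For Mag it was -1.64 against all other kept cells, -1.44 against neuron-like, -1.64 against tanycyte-like and -2.08 against astrocyte-like cells. For Mog it was -2.20 against all other kept cells and -2.39 against neuron-like cells. For Cnp it was -0.99 against all other kept cells, -1.08 against neuron-like, -0.97 against tanycyte-like, -1.39 against leptomeningeal-like and -0.92 against endothelial-like cells. For Mbp in oligodendrocyte-like cells this ratio was -0.05 and the change fitted by edgeR was 0.03, so it has no clear sign there.

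Wells that failed the filter, which enter no comparison, held the 9 genes at 1220, 3074 and 4906 CPM on fed 1, 2 and 3 and at 2564 CPM on the fasted plate.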

How the results depend on the processing

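Of 746 alternative values for single genes, 707 kept their direction and side of the threshold, 14 passed it under an alternative, 17 lost it and 8 turned. In oligodendrocyte-like cells Mbp was -0.21, Pex5l 0.13, Tppp3 -0.17 and Ugt8a -0.076 with fed 1 included, and Mobp was 0.17, Cnp 0.0096 and Pex5l 0.074 with no filter on low counts. Mbp in endothelial-like cells ran from -0.18 (without fed 1) to 0.57 when 1 fed plate was left out. The 7 genes called in oligodendrocyte-like cells became 0 by DESeq2 and 2 with fed 1 included. In all other kept cells, members called were 4 with no filter and 0 to 3 without 1 fed plate, and genes called were 41 by DESeq2, 368 with no filter and 0 to 1093 without 1 fed plate. In neuron-like cells, members called were 3 with no filter and 0 to 4 without 1 fed plate, and genes were 60 by DESeq2, 401 with no filter and 94 to 488 without 1 fed plate. Genes called in tanycyte-like cells (322) were 51 by DESeq2, 175 with no filter and 162 to 240 without 1 fed plate. In astrocyte-like cells (32) they were 1 by DESeq2, 16 with no filter and 2 with fed 1 included. In leptomeningeal-like cells (56) they were 0 by DESeq2, 29 with no filter and 6 to 121 without 1 fed plate. In endothelial-like cells (1) they were 0 by DESeq2, 2 at Leiden resolution 1.0, 0 without Scrublet's doublets, 25 without TMM, 7 with no filter and 0 to 58 without 1 fed plate. As a mean over cells, the members outside the class were at 329 CPM fed and 619 CPM fasted. Thinned to 2000 transcripts, Mag was detected in 100% of oligodendrocyte-like and 7.83% of other wells. The cause was not tested. Including fed 1, and leaving out pars tuberalis-like cells (0 genes called), were chosen after seeing the data. Leaving out a fed plate was not run for oligodendrocyte-like and astrocyte-like cells, where it leaves 1 plate against 1. No paired analysis was possible because the fed and fasted plates share only a number given in accession order. Depth limits Anln most, which rests on 8 and 11 counts in the tested fed plates.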
